A study of Mus musculus with 69 samples.

Results

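The 10 genes described here encode proteins of fast skeletal muscle, and they were followed across every array of a time course in mouse dorsal skin. The genes were chosen by symbol: Acta1, Actn3, Myh1, Myh4, Ckm, Mylpf, Tnnt3, Tnnc2, Atp2a1 and Pvalb. Each was read from a probe set that carries 1 gene symbol, and where a gene had several such probe sets the one of highest mean was taken. All 10 were found among the 18820 genes measured in this way, and no filter on low values was applied to them.

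Expression was measured on 69 Affymetrix arrays of biotin-labelled RNA, of which 66 have a labelled strain and time and fall into 27 groups. The skin came from mice aged 8 weeks that were shaved and, 2 days later, painted with TPA, a plant-derived activator of protein kinase C that inflames skin and makes the epidermis thicken. TPA was given as a 1e-04 M solution in acetone, and the 0 h arrays are labelled untreated. The protocol speaks of 1 dose while the series' design text speaks of repeated exposure, and the protocol's list of times does not hold 12 or 1008 h, so which dose the hours count from is not settled for all arrays. The FVB mice, FVB/N in the labels' protocols, gave 3 arrays at each of 9 times (0, 2, 6, 12, 24, 48, 72, 168 and 1008 h). The F1 mice, whose parents the protocols give as FVB/N and Spret/Ei, gave 4 arrays at 0 h, 1 at 2 h, 2 each at 4, 6, 12, 24 and 72 h, 3 at 48 h, 1 at 168 h and 6 at 1008 h. The Spret/Ei mice, labelled SPR, gave 2 arrays each at 0, 4, 12, 24, 48 and 1008 h and 1 each at 2 and 6 h. No array is labelled as vehicle-treated, so TPA, acetone and time since shaving cannot be told apart, and the labels do not say which arrays come from separate mice, so the p-values measure only the spread between arrays, part of which may be technical. All FVB arrays belong to batch 1, whereas both other strains were run in batches 2 and 3. FVB levels were therefore not tested against those of the other strains. Where arrays of all strains are ranked or their spread is given side by side, FVB and batch 1 cannot be told apart.

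Skeletal muscle contracts when myosin heads pull on actin filaments, and calcium released from the sarcoplasmic reticulum switches this on through troponin. Fibres are slow or fast according to the myosin heavy chain, troponin and calcium pump isoforms they carry. In the mouse, unlike in human skin at most sites, a thin sheet of such muscle, the panniculus carnosus, lies beneath the dermis and fat of the back and moves the skin. It is built mainly of fast fibres. In RNA of whole tissue, fewer muscle cells and less muscle RNA per cell cannot be told apart. The label of dorsal skin was checked on epidermal keratins: Krt5 had a mean log2 value of 12.22 and Krt14 one of 12.04, and the epidermis list score was -4.15 in replicate 1 of SPR at 12 h and no lower than -1.38 in the other assigned arrays.

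Of the sarcomere genes, Acta1 encodes the skeletal alpha-actin of the thin filament and lies at chr8:123891758-123894775 (GRCm38.p6). Actn3 (chr19:4861216-4877909) encodes the alpha-actinin that anchors thin filaments in fast fibres. Myh1 (chr11:67200102-67224577) and Myh4 (chr11:67237812-67260447) are neighbours and encode the myosin heavy chains of type IIx and IIb fibres. Mylpf (chr7:127208848-127214288) encodes the regulatory light chain of fast myosin. Tnnt3 (chr7:142498771-142516213) and Tnnc2 (chr2:164777161-164779734) encode the fast troponin T and troponin C. Atp2a1 (chr7:126445858-126463103) encodes the fast-fibre calcium pump SERCA1, and Pvalb (chr15:78191112-78206400) the calcium buffer parvalbumin. Ckm (chr7:19411094-19421583) encodes the muscle creatine kinase, which regenerates ATP.

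Promoter sequences of these genes, taken from RefSeq (GRCm38.p6), are shown because the genes moved together across the arrays. Of the 10 genes, 8 were matched in the promoter table, with 9 windows, and Tnnt3 and Actn3 were not matched. The windows of the 4 genes below are the 250 bases before the annotated start, read 5′ to 3′ on the gene's strand. Capitals mark matches on either strand to the MEF2 motif, the CArG box and the TATA box.

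Acta1: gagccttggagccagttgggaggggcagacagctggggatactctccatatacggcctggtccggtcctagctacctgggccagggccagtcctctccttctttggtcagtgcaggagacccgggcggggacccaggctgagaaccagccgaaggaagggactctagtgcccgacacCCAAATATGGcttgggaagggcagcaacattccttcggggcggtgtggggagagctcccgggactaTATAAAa
Myh1: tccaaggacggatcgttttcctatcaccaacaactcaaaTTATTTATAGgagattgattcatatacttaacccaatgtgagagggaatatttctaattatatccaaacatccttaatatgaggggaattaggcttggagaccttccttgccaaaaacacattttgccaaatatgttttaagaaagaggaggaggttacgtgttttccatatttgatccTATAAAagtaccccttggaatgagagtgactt
Myh4: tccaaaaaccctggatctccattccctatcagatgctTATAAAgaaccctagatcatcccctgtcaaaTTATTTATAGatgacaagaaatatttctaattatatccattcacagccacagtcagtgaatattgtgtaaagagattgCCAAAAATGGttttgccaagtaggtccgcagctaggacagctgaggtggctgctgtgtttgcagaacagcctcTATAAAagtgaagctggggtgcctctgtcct
Pvalb: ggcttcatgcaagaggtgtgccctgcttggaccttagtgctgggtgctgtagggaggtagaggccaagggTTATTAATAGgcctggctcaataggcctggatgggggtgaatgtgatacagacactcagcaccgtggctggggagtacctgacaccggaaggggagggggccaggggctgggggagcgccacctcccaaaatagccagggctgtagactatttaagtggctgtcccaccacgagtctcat

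The Acta1 window is chr8:123894776-123895025 on the minus strand, Myh1 chr11:67199852-67200101 and Myh4 chr11:67237562-67237811 on the plus strand, and Pvalb chr15:78206401-78206650 on the minus strand. The MEF2 motif, named for the factors that act with MyoD proteins in muscle, was matched in the windows of Myh1, Myh4 and Pvalb, that is in 3 of 9 windows against 2.92% of all 32851 windows of this length. The CArG box, the letters that serum response factor binds, was matched for Acta1 and Myh4, in 2 of 9 windows against 1.47%. The TATA box was searched as TATAAA, and in Myh1 and Myh4 one of its matches lies inside the MEF2 match. It was matched in 3 of 9 windows against 12.4% of all windows. The E-box CANNTG, searched on both strands and not capitalised, was matched in 7 of 9 windows against 66.2%. These are matches of letters only.

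The muscle genes spanned wide ranges over the 66 arrays. Acta1 ran from a log2 value of 4.94 in replicate 3 of FVB at 12 h to 11.82 in replicate 3 of FVB at 72 h, with a median of 7.81. Atp2a1 ran from 3.59 in replicate 3 of FVB at 48 h to 11.28 in replicate 3 of FVB at 72 h, a span of 7.69 log2 units or 206-fold. Mylpf had the narrowest span of the 10, from 4.44 to 9.16, or 26.2-fold. The same 3 FVB arrays marked the ends for nearly all genes: the lowest array was replicate 3 of FVB at 12 h or at 48 h for all 10, and the highest was replicate 3 of FVB at 72 h for 9 of 10. Myh4 was the exception, and its highest value, 10.11, was in the 1 F1 array at 2 h.

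A member score was formed for each array as the mean over the 10 genes of the log2 value minus the gene's mean over the 66 arrays. The score ran from -2.77 in replicate 3 of FVB at 48 h to 3.53 in replicate 3 of FVB at 72 h, a span of 6.30 log2 units or 78.5-fold. The next arrays at the low end were replicate 3 of FVB at 12 h (-2.67) and replicate 3 of FVB at 168 h (-1.64). At the high end they were the F1 array at 2 h (3.22) and both F1 arrays at 6 h (2.41 and 2.38).

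**Figure D1:**
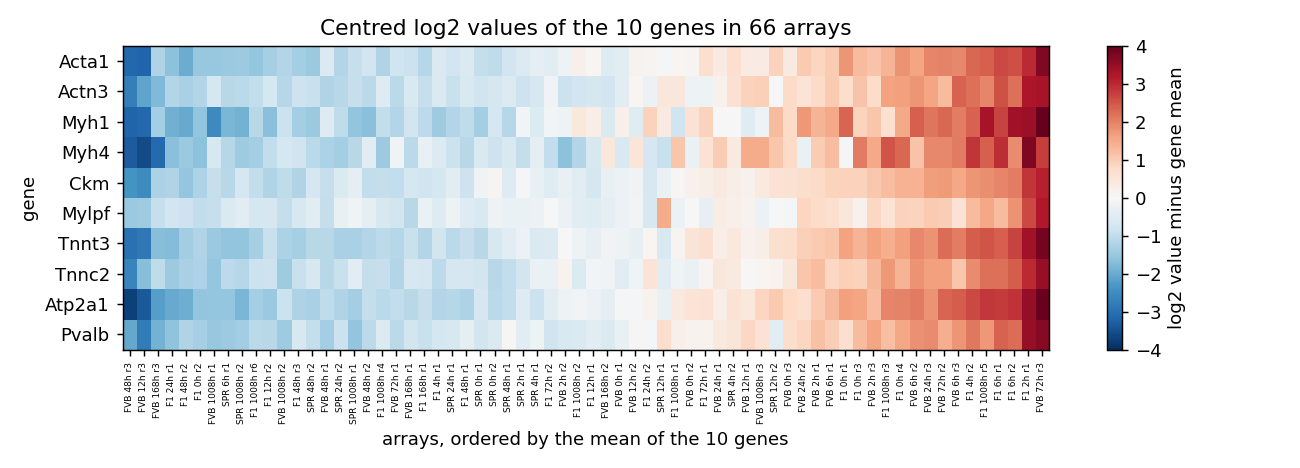
Log2 value minus the gene's mean (colour, from -4 to 4) of the 10 genes (rows) in 66 arrays (columns, ordered by the mean of the rows; r is the replicate number). The columns change colour from top to bottom together, from replicate 3 of FVB at 48 h, with a mean of -2.77, to replicate 3 of FVB at 72 h, with 3.53.

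Much of this span lay between arrays of one group. In the 3 FVB arrays at 72 h Acta1 had log2 values of 7.30, 10.08 and 11.82, and Ckm had 6.62, 9.31 and 10.73. In the 3 FVB arrays at 12 h Acta1 had 8.42, 8.23 and 4.94, and Ckm had 7.79, 7.48 and 5.09. The 4 untreated F1 arrays had 9.87, 6.58, 9.39 and 9.89 for Acta1, and the 6 F1 arrays at 1008 h ran from 6.57 over a median of 8.26 to 10.51. One array stood far below the rest at 12 h in FVB and among the untreated F1 arrays, while the arrays of the other groups lay far apart from each other. The score spanned 4.45 log2 units within FVB at 72 h, 3.06 within FVB at 12 h, 2.95 within untreated F1 and 3.40 within F1 at 1008 h. It spanned 0.03 within F1 at 6 h and 0.10 within untreated SPR, each with 2 arrays.

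The SD within groups, pooled over all groups, had a median of 1.13 log2 units over the 10 genes and of 0.31 over all 18820 genes. Ranked by this SD among all genes, Myh4 was in place 9 (SD 1.45), Atp2a1 in place 17 (1.34), Myh1 in place 18 (1.33), Acta1 in place 43 (1.20) and Mylpf, the lowest of the 10, in place 373 (0.73). Of the 10, 8 were among the first 100 genes. The other genes of the first places were mostly keratins and keratin-associated proteins of the hair follicle and shaft, such as Krtap15 (1.86) and Krt33a (1.60). Alb, of the liver list, was in place 37 (1.22). The share of a gene's variance over arrays that lay within groups was between 37.4% for Tnnt3 and 50.7% for Myh4, and its median over all genes was 42.4%. The muscle genes thus had a large variance both within and between groups.

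**Figure D2:**
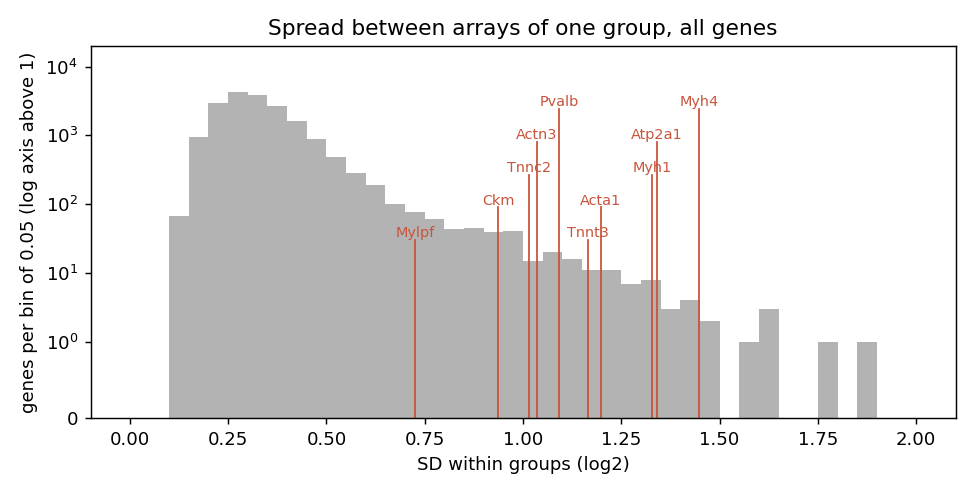
Number of genes (vertical axis, logarithmic above 1) by pooled SD within groups in log2 units (horizontal axis, bins of 0.05), for 18820 genes, with the 10 muscle genes as labelled lines whose height has no meaning. All 10 lie between 0.73 (Mylpf) and 1.45 (Myh4), above the median of 0.31.

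The spread differed between strains. Within groups the score had an SD of 1.15 in FVB, 1.18 in F1 and 0.32 in SPR, where it rests on 6 degrees of freedom. The median of the SD of the 10 genes was 1.23 in FVB, 1.22 in F1 and 0.48 in SPR, and that of all genes was 0.28, 0.25 and 0.43. The SPR arrays all had scores between -1.29 and 0.52. The SPR values include replicate 1 at 12 h, an array of narrow distribution (interquartile range 1.63), whose part was not tested. The difference in spread between strains was not tested.

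The 10 genes followed each other closely. Over the 66 arrays, the 45 pairs had Pearson correlations from 0.807 (Myh4 and Mylpf) to 0.987 (Tnnt3 and Atp2a1), with a median of 0.945 and a median Spearman rho of 0.913. Taken on deviations from the group means the median was 0.914, so that the genes also moved together between arrays of one group. That held less in SPR, where the median on deviations was 0.538 and the lowest, for Myh4 and Mylpf, was -0.680. Replicate 1 of SPR at 12 h, an array of narrow distribution, had Mylpf at 7.41 and Myh4 at 5.49, against 5.93 and 7.49 in replicate 2. The part of that array in the SPR correlations was not tested. Without the 2 arrays farthest from the median score (replicate 3 of FVB at 72 h and F1 at 2 h) the median on the values themselves was 0.931. It was 0.956 over the 27 FVB arrays, 0.958 over the 25 F1 arrays and 0.764 over the 14 SPR arrays. These arrays share strain, time and normalisation, and the correlations are given as a description.

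The genes differed in how far they moved with the score. Per unit of the score Atp2a1 moved by 1.22 log2 units, Myh1 by 1.20 and Mylpf by 0.622. The scatter about that line was smallest for Tnnt3, with a residual SD of 0.20, and largest for Myh4 and Myh1, with 0.58 and 0.48. Ckm has another probe set with 1 symbol, of mean log2 value 4.40 and range 3.67 to 5.60, which had a correlation of 0.467 with the one used. Tnnc2 has another that it shares with Ube2c, a cell cycle gene, with a correlation of -0.227, and that probe set was not used.

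Myh1 and Myh4, which lie side by side and mark different fast fibre types, parted in single arrays. The centred difference Myh4 minus Myh1 ran from -2.41 in replicate 1 of untreated F1, where Myh1 was 8.59 and Myh4 6.30, to 1.95 in replicate 1 of FVB at 12 h, where Myh1 was 5.79 and Myh4 7.85. It was above 1 log2 unit in 10 arrays and below -1 in 10. Both signs occurred among arrays of one group: replicates 1 and 2 of FVB at 24 h had 1.02 and -1.98, and replicates 2 and 3 of F1 at 1008 h had -1.61 and 1.89. The SD of the difference within groups was 1.09, against 0.99 over all arrays. Its correlation with the score was -0.135 (Spearman rho = -0.140, n = 66 arrays), so arrays rich and poor in muscle transcripts showed differences of both signs. Of the other 8 genes, the deviation of Actn3 from the score had the highest correlation with this difference, 0.457, and Acta1 and Tnnt3 had the lowest, -0.379 and -0.367.

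**Figure D3:**
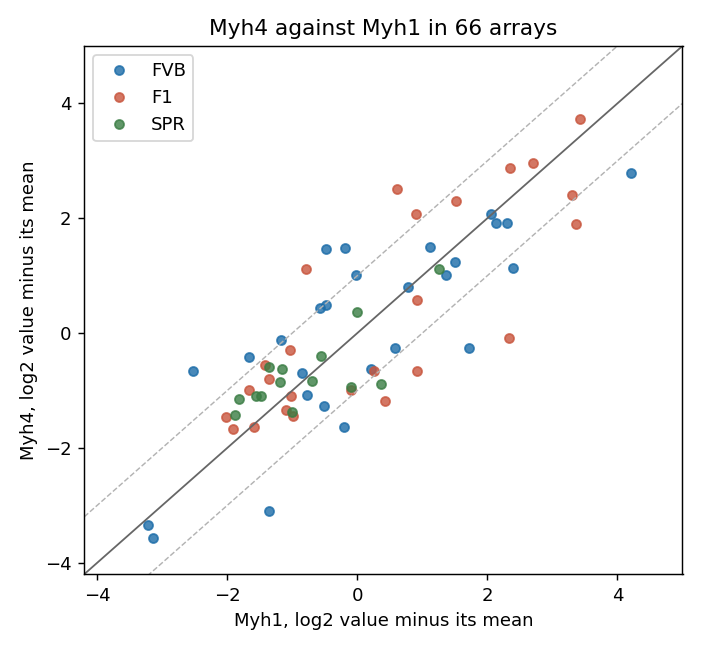
Centred log2 values of Myh4 (vertical axis) against Myh1 (horizontal axis) in 66 arrays, coloured by strain; the solid line marks equal deviation and the dashed lines a difference of 1 log2 unit. Of the arrays, 10 lie above the upper dashed line and 10 below the lower one.

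Outside the 10, the 10 genes of highest correlation with the score held 6 of the sarcomere list, 2 of calcium release, 1 of energy metabolism and Apobec2, which is in none of the lists. They were Ttn, which encodes the giant spring protein titin (r = 0.987), Neb, nebulin (0.986), Ryr1, the calcium release channel (0.972), Tnni2, fast troponin I (0.965), Myl1, an essential light chain (0.963), Casq1, calsequestrin of fast fibres (0.962), Actn2 (0.959), Klhl41 (0.949), Apobec2 (0.941) and Eno3, muscle enolase (0.936). Ttn ran from 3.26 to 10.28 over the arrays. Of all 18810 genes outside the 10, 44 had a correlation above 0.8, which is 0.234%, and the median was -0.057.

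Lists of muscle genes showed how far this reached. Of 18 measured genes of the list for fast sarcomere and sarcomere structure, 16 had a correlation above 0.8, and the median was 0.921. That list is not confined to proteins particular to fast fibres. Of 12 genes of muscle energy metabolism 6 did (median 0.787), among them Pygm, muscle glycogen phosphorylase (0.898), and Mb, myoglobin (0.922). Of 11 genes of calcium release and excitation 4 did (median 0.729), among them Cacna1s, the voltage sensor (0.922). Of 8 genes of slow fibres 1 did, Myoz2 (0.821), and the median was 0.100. All 8 were dim, with mean log2 values between 4.15 (Myl2) and 5.13 (Tnnt1), against a median of 5.53 over all probe sets. Whether the low levels kept these correlations low was not tested. Myh7, the slow myosin heavy chain, had 0.002, with log2 values between 4.03 and 6.49. Its highest value was in replicate 1 of SPR at 12 h, an array of narrow distribution. No gene of the lists for cardiac muscle (6 measured), smooth muscle (8), adipocytes (7), epidermis (6) and dermal fibroblasts (6) reached a correlation of 0.5. Their medians were 0.106, 0.183, 0.288, -0.191 and 0.153.

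**Figure D4:**
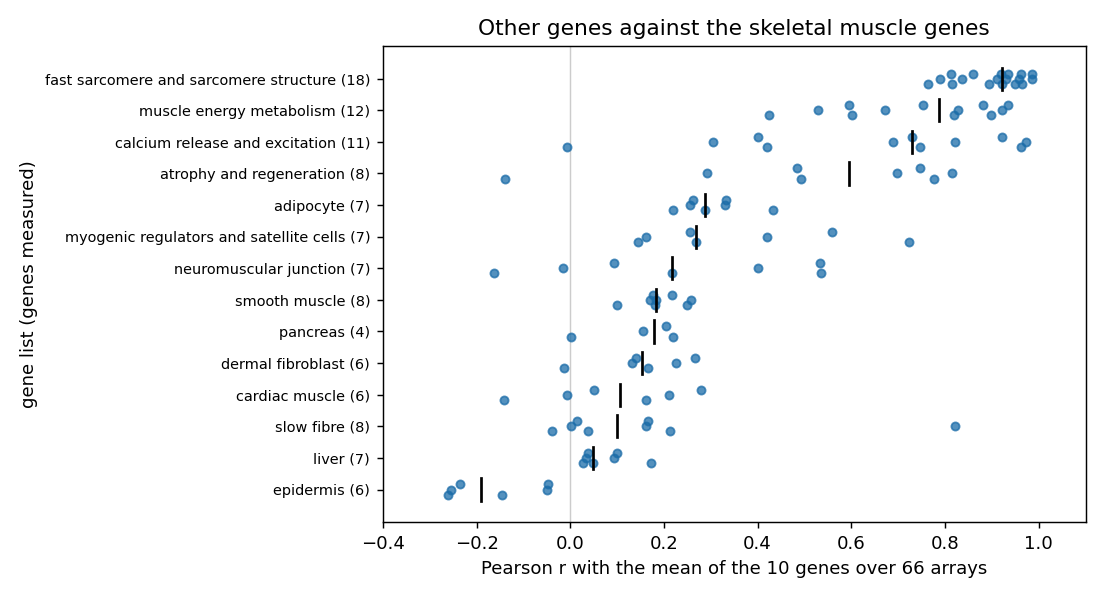
Pearson correlation over 66 arrays of each listed gene (points) with the mean of the 10 muscle genes, by list (vertical axis, number of genes measured in brackets), with the list's median as a bar. Genes of the list for fast sarcomere and sarcomere structure lie between 0.764 and 0.987. The slow fibre genes other than Myoz2, all of low mean value, reach at most 0.213.

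The course after TPA was then examined within each strain (limma, 1 model over all groups with a batch term; called means a Benjamini-Hochberg adjusted p under 0.05 together with a log2 change of at least 1 in size). In FVB the median log2 change of the 10 genes against 0 h was positive at 2 h (0.43), 6 h (1.40), 24 h (0.80) and 72 h (1.28), and negative at 12 h (-0.88), 48 h (-1.65), 168 h (-1.16) and 1008 h (-0.85). The median over all genes lay between -0.036 and 0.053 at these times. Single arrays moved the values: without replicate 3 the median was 0.06 at 12 h and 0.22 at 72 h, and without replicate 1 it was 2.52 at 72 h. The muscle genes were called in 0 of 80 tests, against 6.40% of all tests over these times, and 7 had an unadjusted p under 0.05. The trend and robust setting of limma also called 0. The standard errors of these genes had a median of 0.87 log2 units, against 0.26 for all genes.

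**Figure D5:**
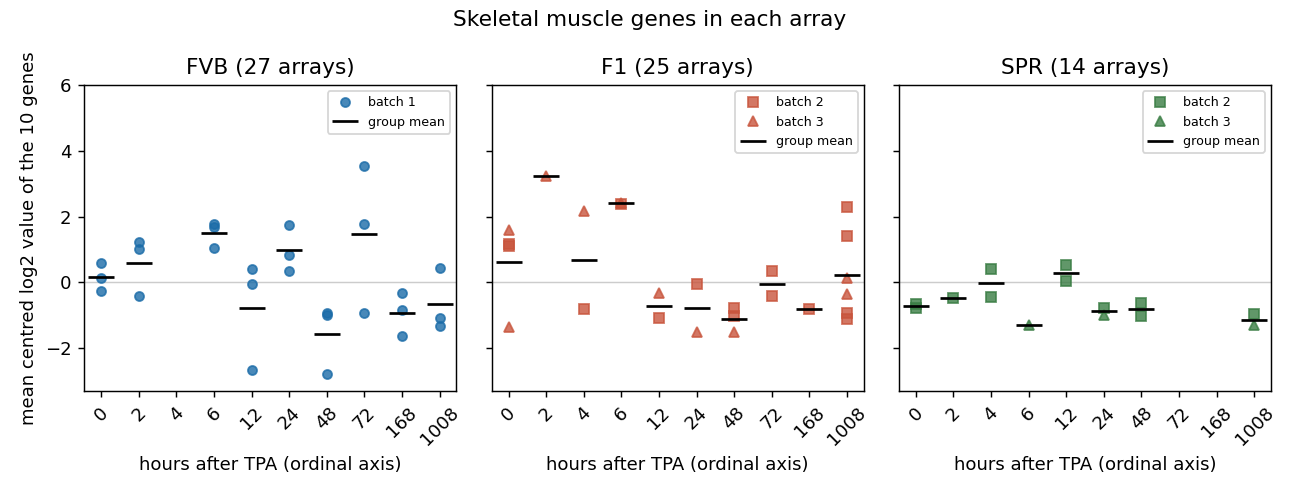
Mean centred log2 value of the 10 muscle genes (vertical axis) by hours after TPA (horizontal axis, evenly spaced) in each array (points, shaped by batch), by strain, with group means as bars. The FVB arrays at 72 h span -0.93 to 3.53 and the F1 arrays at 6 h lie at 2.38 and 2.41.

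At 6 and 48 h the FVB arrays stood apart from the controls in opposite directions. Atp2a1 had log2 values of 7.24, 7.88 and 8.11 in the untreated FVB arrays and of 8.62, 9.40 and 9.74 at 6 h. Actn3 had 5.53, 5.75 and 6.69 and then 6.97, 7.70 and 8.28. All 3 arrays at 6 h stood above all 3 controls for all 10 genes, as they did for 21.9% of all genes. The log2 changes were between 0.82 ± 0.56 (SE) for Mylpf and 1.66 ± 0.79 for Actn3, and the lowest adjusted p of limma was 0.128. The scores of epidermis, smooth muscle and dermal fibroblast markers were lower in these 3 arrays than in the 3 controls, and that of cardiac markers was higher. The part of these cell types in the result was not tested. At 48 h Atp2a1 had 6.31, 6.36 and 3.59, and 9 of 10 genes, all but Myh4, had no overlap with the controls on the lower side, against 13.2% of all genes. The lowest adjusted p of limma at 48 h was 0.109.

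A moderated F test over all 8 FVB times asks whether a gene differed at any time, with no fold threshold. It called 9 of the 10 genes in limma (adjusted p between 0.00364 for Tnnt3 and 0.0146 for Acta1), against 50.9% of all genes, and Myh4 was not called (adjusted p = 0.109). In F1 the test over 7 times called 1 of 10, Ckm (adjusted p = 0.0326), against 26.7% of all genes. That call was lost under trend and robust settings and in batch 2 alone, and leaving out single F1 arrays gave between 0 calls (without either array at 6 h, for example) and 9 (without replicate 1 at 4 h). In SPR the adjusted p of this test in limma over 5 times ran from 0.510 for Myh1 to 0.954 for Ckm, while 35.3% of all genes were called. The test uses a spread common to all strains, and the median SD of the 10 genes within groups was smaller in SPR than in FVB or F1.

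In F1 the course resembled that of FVB at 6 and 48 h. Acta1 had 10.76 and 10.68 at 6 h and 7.54, 6.14 and 6.76 at 48 h, beside 9.87, 6.58, 9.39 and 9.89 in the untreated arrays. The 6 h arrays stood above all 4 controls for 9 of 10 genes, against 25.8% of all genes, while at 48 h no gene of the 10 was clear of the controls (on the lower side, 10.4% of all genes were) and the second control had values as low as those at 48 h. The median log2 change was 0.04 at 4 h and 1.78 at 6 h, and it was negative at 12 h (-1.46), 24 h (-1.40), 48 h (-1.77), 72 h (-0.85) and 1008 h (-0.40). Of the 2 arrays at 72 h, replicate 2 has a narrow distribution (interquartile range 2.47). In 70 tests 0 were called, against 4.56% of all tests, and 11 had an unadjusted p under 0.05 (limma; the trend and robust setting also called 0). Without the second control the median at 6 h was 1.05. Within batch 2 (1 array against 2) the median difference between 6 h and 0 h was 1.16, and within batch 3 (1 against 2) it was 2.23; at 48 h it was -1.94 and -1.61. The value at 4 h rests on arrays that disagreed: Acta1 had 7.54 in one and 10.41 in the other, and the median was 1.81 without replicate 1 and -1.57 without replicate 2.

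Setting 48 h directly against 6 h, a pair of times chosen after their values were seen as the lowest and the highest of the FVB means, gave a lower level of all 10 genes at 48 h in both strains. In FVB Ckm had 8.52, 8.99 and 9.16 at 6 h and 6.71, 6.62 and 5.23 at 48 h. The groups did not overlap for any of the 10, which held on the lower side for 15.9% of all genes. The log2 change ran from -1.65 ± 0.56 (SE) for Mylpf to -3.84 ± 1.03 for Atp2a1, with a median of -3.08. All 10 were called (limma, adjusted p from 0.00151 for Actn3 to 0.0338 for Myh4), against 4.99% of all genes called lower, and these p-values do not account for the choice of the pair. Without replicate 3 at 48 h, the array of lowest score, 4 remained called: Actn3, Ckm, Tnnt3 and Pvalb. Under trend and robust settings 9 were called, all but Myh4. With the mean of both Ckm probe sets its change was -1.56 in place of -2.70.

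In F1 the same pair gave log2 changes from -2.18 ± 0.63 (SE) for Mylpf to -4.54 ± 1.14 for Myh1, with a median of -3.46. Myh1 had 8.97 and 9.63 at 6 h and 5.25, 4.24 and 4.91 at 48 h. No gene of the 10 overlapped between the groups, as held on the lower side for 25.6% of all genes. All 10 were called (limma, adjusted p from 0.00484 for Myh1 to 0.04995 for Myh4), against 3.88% called lower. The call of Myh4 held in 5 of 16 alternatives, and was lost under trend and robust settings, with arrays centred on their medians and without the batch term, among others. Without replicate 2 at 6 h none was called, although the median was then still -3.46. Within batch 2, with 2 arrays against 1, the median difference was -3.40 and in batch 3, with 1 against 1, it was -3.64, and all 10 differences were negative in both. Fitted on batch 2 alone, 0 of 10 were called.

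Between 48 and 72 h the FVB values turned again. All 10 changes were positive, from 2.10 ± 0.56 (SE) for Mylpf to 3.67 ± 1.03 for Atp2a1, and Ckm and Tnnt3 were called (limma, adjusted p = 0.0493 and 0.0463), 2 of 10 against 0.335% of all genes called higher. All pairs of successive FVB times after 0 h were tested, and no muscle gene was called in any other pair. These comparisons were added after seeing the data, and the p-values do not account for the number of pairs. Tnnt3 had 6.08, 6.03 and 4.21 at 48 h and 6.08, 9.44 and 11.04 at 72 h, so that replicate 1 at 72 h was no higher than the first array at 48 h. Only for Myh4 did the arrays not overlap, as held for 6.32% of all genes. Both calls were lost without replicate 1 or 3 at 48 h and without replicate 2 or 3 at 72 h. They were also lost with a replicate block, under trend and robust settings, and without the FVB controls 2 and 3. All 10 were called without replicate 1 at 72 h, where the median change was 4.08 in place of 3.00.

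SPR skin held a narrower course. Atp2a1 had log2 values of 6.66 and 6.25 in untreated skin, and of 6.46 and 7.89 at 4 h. At 12 h its arrays gave 7.03 and 8.36. From 24 h on, the 6 arrays lay between 5.50 and 6.33. The 12 h arrays stood above both controls for 8 of 10 genes, against 14.7% of all genes. The median change at 12 h was 0.92, and 1.29 without replicate 1. That array has a narrow distribution, with an interquartile range of 1.63, against 2.47 in replicate 2 of F1 at 72 h. All other assigned arrays had at least 3.32. In replicate 1 of SPR at 12 h the epidermis score was -4.15, and Mylpf stood at 7.41, the highest of the SPR arrays. Tnnt3 stood at 6.60 there, below the other array at 12 h. No test of the 50 was called (limma; 0 also under trend and robust settings and 0 at an unadjusted p under 0.05), against 4.83% of all tests. The model gives each gene 1 spread over all strains. At 4, 12 and 48 h the standard errors of the 10 genes had a median of 1.06, whereas their SD within SPR groups had a median of 0.48. The lack of calls thus says little about changes of the size seen in SPR.

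Between strains, no difference was called. The change from 0 h was compared at each time that 2 strains share, in 15 comparisons, and 0 of 150 tests of the muscle genes were called against 1.77% of all tests (limma; 5 had an unadjusted p under 0.05, and 0 were called under trend and robust settings). At 24 h the median change was 0.80 in FVB and -1.40 in F1, a difference of -2.18, and at 72 h it was 1.28 and -0.85, a difference of -2.14. The standard errors of these differences had medians of 1.26 and 1.28, and neither was called. The F1 value at 72 h rests on 2 arrays, of which replicate 2 has the narrow distribution given above. Between untreated SPR and untreated F1 the median difference was -1.54 log2 units, with Acta1 at 7.16 and 7.10 against 9.87, 6.58, 9.39 and 9.89. None of the 10 was called (limma; 0 at an unadjusted p under 0.05 and 0 under trend and robust settings), against 0.239% of all genes.

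At 6 h, genes that muscle raises under stretch, damage or wasting passed the test. Ankrd1, a titin-bound protein of strained muscle that other injured tissues also make, had log2 values of 3.71, 3.95 and 3.77 in untreated FVB and of 4.47, 7.56 and 7.90 at 6 h. Ankrd2, its relative in skeletal muscle, had 4.89, 4.75 and 4.99 and then 6.16, 7.40 and 7.10. Trim63, the ubiquitin ligase MuRF1, had 4.00, 3.77 and 4.02 and then 4.87, 5.72 and 7.12. The controls lay close together, and every array at 6 h stood above every control for these genes, as held for 21.9% of all genes. Their correlation with the member score over the 66 arrays was 0.492 for Ankrd1, 0.748 for Ankrd2 and 0.697 for Trim63. The changes were 2.83 ± 0.47 (SE) for Ankrd1, 2.01 ± 0.46 for Ankrd2 and 1.97 ± 0.40 for Trim63 (limma, adjusted p = 1.07e-05, 9.18e-04 and 1.91e-04). These were 3 of the 8 genes of a list for atrophy and regeneration, against 6.45% of all genes called higher at 6 h. Whether they changed more than the 10 genes was not tested. Fbxo32, the other ligase of muscle wasting, which other cells also express, had -0.92 ± 0.34 at 6 h and fell at 2 h by 1.77 on the log2 scale (limma, adjusted p = 1.81e-04), when 3.08% of all genes were called lower.

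In F1 at 6 h 4 of these 8 genes rose and 1 fell, against 5.44% of all genes called higher and 4.98% called lower. Ankrd1 had 3.85, 3.54, 3.85 and 3.77 untreated and 6.69 and 7.94 at 6 h, a change of 3.56 ± 0.50 (SE). Trim63 changed by 2.35 ± 0.42, Ankrd2 by 2.42 ± 0.49 and Csrp3, a protein of the Z disc, by 2.45 ± 0.54, while Fbxo32 changed by -2.12 ± 0.36 (limma, adjusted p between 7.09e-07 and 7.69e-04). Ankrd1 and Trim63 were also called in batch 2 alone, whereas Ankrd2, Csrp3 and Fbxo32 were not. Ankrd2 and Csrp3 were not called without replicate 2 at 6 h.

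Of 7 measured genes of myogenic regulators and satellite cells, 1 was called higher at 6 h in FVB and 3 in F1, against 6.45% and 5.44% of all genes. Myf6, the transcription factor of the family most abundant in mature fibres, had 4.57, 4.53 and 5.32 in untreated FVB and 6.20, 6.89 and 7.76 at 6 h, a change of 2.14 ± 0.46 (SE; limma, adjusted p = 4.76e-04). In F1 Myf6 changed by 1.99 ± 0.49, Myod1 by 1.47 ± 0.33 and Myog by 1.03 ± 0.32 (limma, adjusted p = 0.00269, 8.62e-04 and 0.0201). All 3 F1 calls were lost in batch 2 alone and without replicate 2 at 6 h, and that of Myog also without control 2 or 4. In replicate 2 at 6 h Myod1 had 6.63, beside 5.61 in the other array. Of the list for fast sarcomere and sarcomere structure, 0 of 18 were called in FVB at 6 h and 3 of 18 in F1. The shares of all genes were the same 6.45% and 5.44%. In FVB 7 of the list had an unadjusted p under 0.05 (limma). The calls in F1 were of Actn2, Klhl41 and Myom2, with changes of 2.13, 2.04 and 1.75. Each of the 3 calls was lost in batch 2 alone, without the second control and without replicate 2 at 6 h. Of the energy metabolism list 1 of 12 was called in FVB at 6 h, a share near the 6.45% of all genes. It was Mb, with a change of 1.65 ± 0.60 (limma, adjusted p = 0.0356), which was lost without replicate 1 or 3 at 6 h or any 1 control. At 12, 48, 168 and 1008 h no gene of the atrophy and regeneration list was called in FVB. At 24 and 72 h Ankrd2 was, with changes of 1.87 and 1.77, against 2.85% and 0.94% of all genes called higher. Of the same list, Ankrd1 was also called higher in F1 at 4 h and Fbxo32 lower at 4 and 12 h. In SPR Ankrd1 was called higher at 12 h, where replicate 1 has a narrow distribution, and Fbxo32 lower at 4 and 12 h. Summed over the times, 4.56% of all tests were called in F1 and 4.83% in SPR. The 1 SPR array at 6 h, with Ankrd1 at 4.06, was not tested.

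Scores of other cell types moved at 6 h as well. In FVB the epidermis score lay between -1.30 and -0.36 at 6 h and between 0.01 and 0.36 at 0 h, and in F1 between -1.03 and -0.24 at 6 h and between 0.34 and 0.46 at 0 h. The smooth muscle score in FVB lay between -0.01 and 0.20 at 6 h and between 0.58 and 0.86 at 0 h, and the dermal fibroblast score between -0.995 and 0.05 and between 0.10 and 0.98. These did not overlap between 0 and 6 h, and all were lower at 6 h, while in F1 the smooth muscle and dermal fibroblast scores overlapped. The cardiac score was higher at 6 h without overlap in both strains. In FVB it lay between 0.41 and 1.505 at 6 h and between -0.495 and -0.097 at 0 h. In F1 it lay between 0.34 and 0.67 and between -0.32 and -0.13. Of the 6 measured cardiac genes, Nppa and Nppb were called higher in FVB at 6 h and Nppb alone in F1. The shares of all genes called higher were 6.45% and 5.44%. The median change over the cardiac list was 0.54 in FVB and -0.006 in F1, so its score did not stand for the list as a whole in F1. The adipocyte score of F1 lay between -0.84 and -0.27 at 0 h, below both arrays at 6 h, while in FVB it overlapped. The adipocyte list (7 measured of 8), scored in the same way, had a correlation of 0.336 with the member score over 66 arrays (Spearman rho = 0.253), 0.136 without the 2 farthest arrays, 0.275 in FVB and 0.722 in F1. Replicate 3 of FVB at 72 h, highest in muscle genes, had an adipocyte score of 2.81, and replicate 3 of FVB at 48 h, lowest in muscle genes, had 1.81. The adipocyte score lay between -0.42 and -0.14 in FVB at 6 h and between -0.77 and 1.87 at 48 h. In F1 it lay between 0.51 and 0.66 at 6 h and between -1.45 and -0.21 at 48 h. It was thus higher at 6 h than at 48 h in every F1 array, while the FVB arrays overlapped. The smooth muscle list had a correlation of 0.234 with the score and the cardiac list one of 0.247. The FVB controls 2 and 3 had liver list scores of 2.28 and 2.65, against -0.55 in control 1. Higher ones occurred in replicate 1 of F1 at 24 h (3.19) and in replicate 1 of FVB at 12 h (2.89). The pancreas list score was 4.04 in replicate 3 of FVB at 6 h, the FVB array at 6 h of highest member score, Trim63 and Myf6, and it was 2.19 in FVB control 3. The part of these cell types in the results was not tested. In the fit without FVB controls 2 and 3, the median change at 6 h was 1.86 and none of the 10 genes was called against 0 h.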

How the data were processed

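Total RNA of dorsal skin was hybridised to Affymetrix arrays. The deposited values are log2 expression values of 35556 probe sets, between 0.206 and 14.839; the submitters' processing notes name RMA, which corrects background, normalises arrays and summarises probes, without a version. The sources used here do not say how the authors handled batches. RMA sets arrays to a common distribution, so values are relative to the rest of each array. The platform annotation gave 1 symbol to 21218 probe sets, several to 1881 and none to 12457, and the probe set of highest mean was kept for each of 18820 genes.

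Tests used lmFit and eBayes of limma 3.58.1 (R 4.3.3, two-sided) on 66 arrays. The model held 27 group means and the difference of batch 3 from batch 2, and its 38 residual degrees of freedom give each gene a spread common to all groups. Called means an adjusted p under 0.05 (Benjamini-Hochberg over all genes) and a log2 change of at least 1 in size. Times with 1 array were not tested. Scores and correlations were computed with pandas and carry no p. The test was checked on simulated arrays. The number of arrays limits the precision.

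The 10 genes and the gene lists were chosen with earlier results of these data known. The rule for named genes took the 10 genes, the 10 others of highest correlation with their score and, from each list, up to 4 genes of widest range between group means and those called; the text names some of these. Krt5, Krt14, Krtap15, Krt33a, Myh7, Cacna1s and Pygm illustrate a list or a ranking and were picked after their values were seen where the rule does not name them. Liver and pancreas lists enter only as scores, apart from Alb in the ranking by SD, which was picked in the same way. The pancreas list (4 measured of 7) had a correlation of 0.179 with the member score and the dermal fibroblast and neuromuscular junction lists 0.182 and 0.396. Alternatives were limma's trend with robust fitting, arrays set to a common median, cyclic loess, no dim probe sets, all probe sets, the mean of a gene's probe sets, no fold threshold, strains alone, a replicate block, no batch term, batch 2 alone and each array left out. Leaving out the 2 narrow arrays or the FVB controls 2 and 3, and the comparisons between times after 0 h, were added after seeing the data. Arrays with the same replicate number did not deviate together (median correlation of deviations -0.009 in FVB, 0.064 in F1 and 0.0005 in SPR), so the numbers were not taken as pairs. No 2 arrays held identical values.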

Additional observations from a re-analysis of the deposited data

Results flagged for a closer look

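In the 4 untreated F1 arrays, replicate 2 stood far below the others for 4 of the 10 genes, by a rule that sets the gap to the nearest array against the range of the group and that flags about 1 in 20 groups by chance. Acta1 had a log2 value of 6.58 there, Tnnt3 6.00, Tnnc2 4.80 and Atp2a1 5.75. The gap was 0.847, 0.907, 0.831 and 0.886 of the range. Of 22 values tested (10 genes and their score in untreated F1 and in F1 at 1008 h), no other was flagged. The 4 flags concern 1 array and genes that move together, so they are not independent of each other. Without it the median change of the 10 genes at 6 h in F1 was 1.05 in place of 1.78.

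The array labelled with neither strain nor time, of batch 2, had a member score of 2.41, above all 9 untreated arrays, whose highest score was 1.60. It entered no comparison.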

How the results depend on the processing

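Depth is not defined for arrays, and the precision is limited by 1 to 6 arrays a group. With the replicate block 9 genes passed the FVB test over times and 1 the F1 test, the comparison of 48 h with 6 h called 10 in each strain, and the calls of Ckm and Tnnt3 between 48 and 72 h in FVB were the only ones lost. The F1 test over times, which called 1, called 0 under trend and robust settings and in batch 2 alone, 2 with F1 fitted alone and 5 without dim probe sets; the last tested fewer genes and 9 of the 10. F1 at 48 h against 6 h called 0 in batch 2 alone, and in both strains the call of Myh4 was lost under trend and robust settings. The median change in F1 at 4 h was -1.81 in batch 2 alone, where 1 array is left, and that in SPR at 12 h was 1.29 without the 2 narrow arrays. The median correlation between the 10 genes was 0.764 in SPR alone.

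Leaving out 1 array at a time gave 0 to 9 calls in the F1 test over times, 0 to 10 in F1 and 4 to 10 in FVB at 48 h against 6 h, 0 to 1 over the FVB times and over the SPR times, and 0 to 2 between strains. In these, the calls were of Mylpf, at 72 h without replicate 1 of FVB and at 12 h without replicate 2 of SPR. The median changes ran from 0.22 to 2.52 in FVB at 72 h, from -1.57 to 1.81 in F1 at 4 h, from 0.32 to 1.21 in SPR at 4 h and from 0.73 to 1.29 in SPR at 12 h. No alternative run turned the direction of a called gene. In all, 1202 of the values under alternatives were rated as kept, 103 as weaker, 12 as stronger and 9 as moved further. A count of calls was kept when it stayed within a set ratio, so that 9 calls in place of 10 were rated as kept. A called gene was kept when it was still called, and a median change when it stayed within the spread. Centring arrays on their medians moved a member score by at most 0.45 and cyclic loess by at most 0.40. Where a call was lost the cause was not tested.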

Other observations

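Of the 3 arrays that the labels place in no strain, the one at 2 h had a member score of 0.23 and the one at 6 h a score of 0.34. The array with no time had 2.41, with Acta1 at 10.27, Myh1 at 9.26, Myh4 at 9.13 and an adipocyte score of 1.79. Their centred differences of Myh4 minus Myh1 were 0.19, -1.80 and -0.25.

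Of the heart list, Nppb had the widest range. It encodes the natriuretic peptide BNP and had a correlation of 0.280 with the member score. Nppb was higher at 6 h by 3.98 ± 0.34 (SE) in FVB and by 4.88 ± 0.36 in F1 (limma, adjusted p = 7.68e-12 and 1.53e-13). At 6 h 6.45% of all genes were called higher in FVB and 5.44% in F1. Nppb was also called in FVB at 2, 12, 24 and 1008 h. In F1 it was called at 4, 12, 24 and 48 h too, and in SPR at 4 and 12 h. Tnnt2, a troponin T of the heart list, was lower at 48 h in FVB and F1, by -1.23 ± 0.23 and -1.11 ± 0.22 (limma, adjusted p = 5.57e-04 and 0.00158). It was also called at 12 and 24 h in F1 and in SPR. Summed over the times, 6.40% of all tests were called in FVB, 4.56% in F1 and 4.83% in SPR. Of the other measured heart genes, Nppa, Tnni3, Myl7 and Actc1, Nppa was called against 0 h once, in FVB at 6 h, and the rest at no time tested.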
